A study of Mus musculus with 12 samples.

Results

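The genes followed here encode the major histocompatibility complex (MHC) molecules of the mouse and the machinery that cuts, transports and loads the peptides they present. They were taken from the mRNA table as every symbol that starts with H2- plus 16 listed genes of antigen processing and its control. This gave 54 of the 22843 gene symbols in the table, of which 39 are H2- symbols. Of the listed genes, Ifi30 is not analysed here. The thymuses came from male wild-type C57BL/6 mice at 2 weeks (2W), 6 weeks (6W) and 3 months (3M), with 2 libraries per age and no treatment. Total RNA was depleted of ribosomal RNA and sequenced with strand kept, and the whole organ was used, so that fewer cells of a type and less RNA per cell cannot be told apart. The methods call the libraries of an age biological replicates, and the p-values measure the spread between these libraries.

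Class I molecules, made of a heavy chain and the light chain B2m, show peptides from inside the cell to CD8+ T cells. Class II molecules, made of an alpha and a beta chain, show peptides from endosomes to CD4+ T cells, and are found mainly on dendritic cells, B cells, macrophages and thymic epithelium. In the thymus both classes display the self peptides on which developing T cells are positively and negatively selected.

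Estimated counts were summed over the transcripts of a symbol. The libraries held 16519753 to 22553481 estimated counts, and the 54 genes took 0.345% to 0.721% of them. Levels are given as CPM, the counts per 1000000 after scaling by the trimmed mean of M values. Levels of the 54 genes were compared with each other in FPKM, which also divides by length. The class ratio is also given in CPM. Marker sums, and the shares of single markers in them, are in CPM and not corrected for length. Of the 54 genes, 41 passed the filter on low counts and were tested among 14805 genes with the quasi-likelihood test of edgeR. A gene was called by either of 2 rules, an adjusted p under 0.05 or the threshold of the study, which asks for an unadjusted p under 0.05 and a log2 fold change beyond 1 in either direction. The other 13 genes had at most 7.99 counts in any library. They were H2-Q5, H2-Bl, H2-M1, H2-M5, H2-M9, H2-M10.1 to H2-M10.6, H2-M11 and the pseudogene H2-Ea-ps, and H2-M10.4 had no count at all. C57BL/6 mice carry the b haplotype, whose H2-Ea is known to be defective.

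Many MHC genes share a promoter module in which an X2 box and a Y box bind factors that recruit the transactivators Ciita, for class II, and Nlrc5, for class I. The promoters were therefore searched, on both strands, for TGACG or TGATG followed after 10 to 30 bases by ATTGG, in windows from 250 bases before to 50 bases after the gene start (RefSeq, GRCm38.p6). The spacing was set after the single motifs had been searched. The pair of letters stood in 1.84% of all 32851 windows, and ATTGG alone in 37.4%. It was found in 6 of the 8 tested class II chain and loading genes with a window (H2-Aa, H2-Eb1, H2-Eb2, H2-DMb1, H2-DMb2 and H2-Ob), in 6 of 12 class I heavy chain genes (H2-K1, H2-D1, H2-Q4, H2-Q6, H2-Q7 and H2-M3) and in B2m. None of the 8 class I loading and immunoproteasome genes with a window held it. Stretches of 100 bases are shown for genes that the results turn on, with the X2 and Y letters in capitals. In Ctss, which held no such pair, the capitals mark the letters of an interferon element, defined as 2 copies of GAAA separated by any 2 bases. That element stood in 3.44% of all windows, in B2m, Ctss, Erap1, Psme1, H2-T22 and H2-T23 among the tested genes. A match describes letters and not a bound site.
H2-Aa (chr17:34287842-34287941, - strand): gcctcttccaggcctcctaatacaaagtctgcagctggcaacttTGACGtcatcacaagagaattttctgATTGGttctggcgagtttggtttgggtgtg
H2-Eb1 (chr17:34305738-34305837, + strand): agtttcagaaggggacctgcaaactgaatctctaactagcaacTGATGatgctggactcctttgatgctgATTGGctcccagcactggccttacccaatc
H2-DMb1 (chr17:34153060-34153159, + strand): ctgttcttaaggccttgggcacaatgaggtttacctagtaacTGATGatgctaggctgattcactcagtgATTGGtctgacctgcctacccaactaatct
H2-Ob (chr17:34238778-34238877, + strand): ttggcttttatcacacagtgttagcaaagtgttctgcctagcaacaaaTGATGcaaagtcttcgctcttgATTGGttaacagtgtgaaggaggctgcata
H2-K1 (chr17:34000334-34000433, - strand): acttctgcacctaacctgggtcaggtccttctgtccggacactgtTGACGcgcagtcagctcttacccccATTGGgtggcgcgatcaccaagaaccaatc
H2-D1 (chr17:35262948-35263047, + strand): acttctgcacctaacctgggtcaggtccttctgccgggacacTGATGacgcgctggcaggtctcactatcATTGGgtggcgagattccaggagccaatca
B2m (chr2:122147564-122147663, + strand): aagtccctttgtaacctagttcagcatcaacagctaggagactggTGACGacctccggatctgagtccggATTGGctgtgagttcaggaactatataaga
Ctss (chr3:95526720-95526819, + strand): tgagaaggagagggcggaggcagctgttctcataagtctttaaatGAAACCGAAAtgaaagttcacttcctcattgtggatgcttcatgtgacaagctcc

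Both classical class I heavy chain genes and the light chain gene were higher at 6W than at 2W. H2-K1 measured 338 and 299 CPM at 2W, 570.2 and 583 at 6W, then 673 and 731 at 3M. H2-D1 measured 337 and 265 CPM at 2W, 576 and 578 at 6W, then 582 and 719 at 3M. Every 6W and 3M library lay above both 2W libraries for these heavy chains. The log2 fold change from 2W to 6W, given throughout with its standard error and the Benjamini-Hochberg adjusted p of edgeR, was 0.86 ± 0.11, adjusted p = 0.0276 for H2-K1 and 0.94 ± 0.16, adjusted p = 0.0455 for H2-D1. From 2W to 3M it was 1.14 ± 0.11, adjusted p = 0.00561 for H2-K1 and 1.11 ± 0.16, adjusted p = 0.0115 for H2-D1, past the threshold of the study for both. B2m, the light chain that every class I molecule needs to reach the cell surface, measured 214 and 164 CPM at 2W, 340.0 and 367 at 6W, then 293 and 318 at 3M. Its 3M libraries lay between those of 2W and 6W. The log2 fold change of B2m was 0.90 ± 0.15, adjusted p = 0.0444 at 6W and 0.69 ± 0.15, adjusted p = 0.0329 at 3M, both against 2W.

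**Figure D1:**
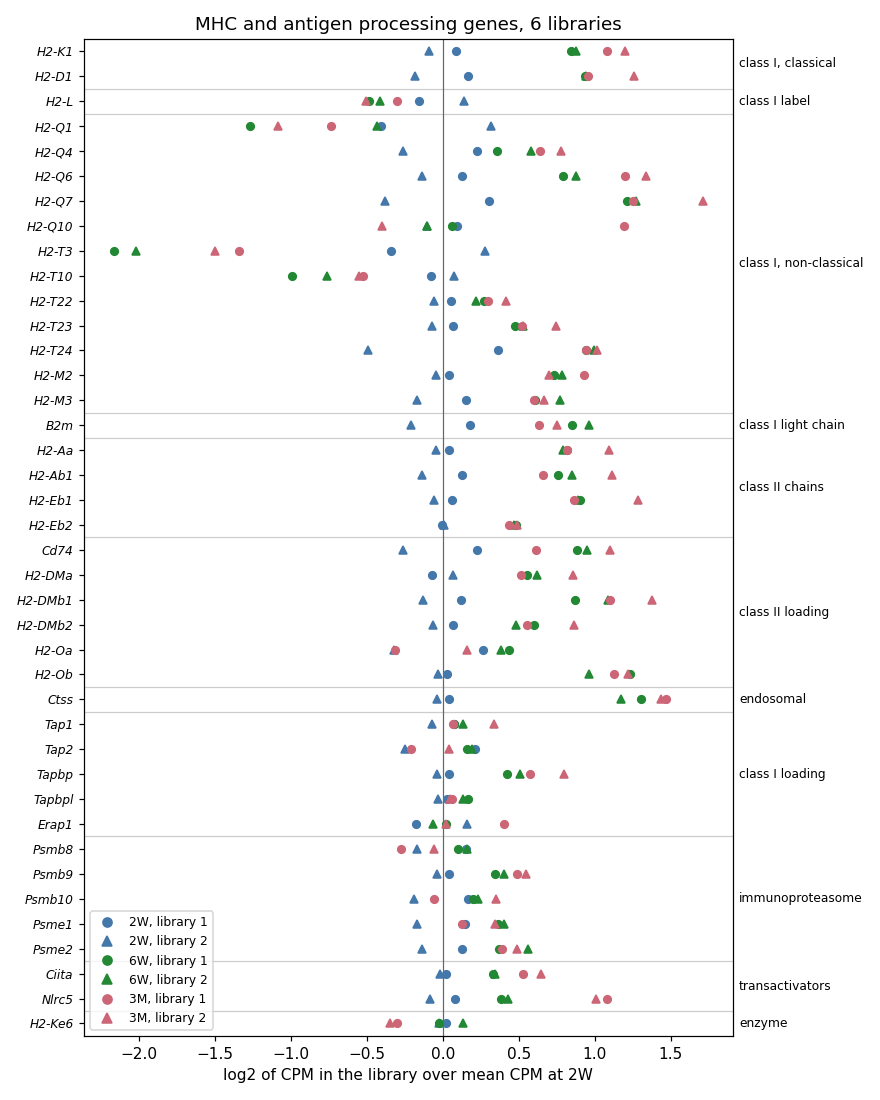
Each point is 1 library, placed on the horizontal axis by the log2 of its CPM over the mean CPM of the 2W libraries, for 40 tested genes grouped by role (H2-Q2, with 0 in 3 libraries, is left out). The green 6W and red 3M points of H2-K1, H2-D1, the class II chains and Ctss sit right of both blue 2W points, while those of H2-T10 and H2-T3 sit left of them.

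Among the non-classical class I genes the directions were mixed. Of 25 such genes 13 were tested, and at 6W against 2W 1 was higher and 1 lower by adjusted p, against 1.47% and 0.263% of all tested genes. At 3M against 2W 4 were higher and 1 lower, against 7.91% and 3.09%. H2-Q6 measured 42.1 and 35.2 CPM at 2W, 67.0 and 70.9 at 6W, then 88.7 and 97.6 at 3M. It rose on the log2 scale by 0.83 ± 0.13, adjusted p = 0.0399 at 6W and 1.27 ± 0.13, adjusted p = 0.00623 at 3M. H2-Q7, a gene of the Qa-2 antigen, measured 26.5 and 16.5 CPM at 2W, 49.9 and 52.0 at 6W, then 51.2 and 70.5 at 3M. Its libraries at 6W and 3M lay above both at 2W, with a log2 fold change of 1.24 ± 0.25, adjusted p = 0.0682 at 6W, past the threshold of the study only, and 1.5 ± 0.25, adjusted p = 0.0169 at 3M. H2-T23, which encodes Qa-1 and presents signal peptides to CD94/NKG2A receptors, measured 149 and 136 CPM at 2W, 198 and 205 at 6W, then 204 and 238 at 3M and was called only at 3M against 2W (0.63 ± 0.12, adjusted p = 0.024). H2-M2 measured 9.61 and 9.07 CPM at 2W, 15.5 and 16.1 at 6W, then 17.7 and 15.2 at 3M, and was also called only there (0.82 ± 0.15, adjusted p = 0.0213).

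H2-T10 and H2-T3 went the other way. H2-T10, whose product is a ligand of some gamma delta T cells, measured 34.0 and 37.7 CPM at 2W, 18.1 and 21.2 at 6W, then 24.9 and 24.5 at 3M. It was lower in all 4 older libraries than in both 2W libraries, by a log2 fold change of -0.87 ± 0.13, adjusted p = 0.0364 at 6W and -0.54 ± 0.13, adjusted p = 0.0465 at 3M. The call at 3M was lost with total counts as the only scaling, with only the 4 libraries compared and with Ensembl transcripts alone. DESeq2 and the fit with no filter each called 1 gene of the set lower there, and the exact test 2. H2-T3, the thymus leukaemia antigen, measured 2.40 and 3.68 CPM at 2W, 0.678 and 0.750 at 6W, then 1.202 and 1.07 at 3M. Its log2 fold change was -2.08 ± 0.39, adjusted p = 0.0584 at 6W and -1.41 ± 0.37, adjusted p = 0.0609 at 3M, past the threshold of the study but not called by adjusted p. H2-T3 had only 38 and 60 counts at 2W, 14 and 17 at 6W, and 20 and 24 at 3M. An assembled transcript held 60.2% of them. H2-Q2 was at 0 in 3 libraries and at 7.97 CPM in the second 2W library, so no direction was read. The other tested non-classical genes had log2 fold changes at 3M against 2W of -0.90 (H2-Q1), 0.71 (H2-Q4), 0.59 (H2-Q10), 0.36 (H2-T22), 0.98 (H2-T24) and 0.64 (H2-M3), and none of these was called in any comparison. The class I genes are close paralogs, and how reads shared between them were split cannot be seen in the table. H2-L, which the b haplotype is known to lack, was represented by 5 assembled transcripts only, and its log2 fold changes of -0.45 ± 0.14, adjusted p = 0.176 at 6W and -0.40 ± 0.14, adjusted p = 0.126 at 3M did not pass the test.

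Of the 4 tested class II chain genes, 2 were higher at 6W and all 4 at 3M, both against 2W, where 1.47% and 7.91% of all tested genes were. H2-Aa, the alpha chain of I-A, measured 279.9 and 264 CPM at 2W, 479 and 469.6 at 6W, then 479.9 and 579 at 3M. H2-Ab1, its beta chain, measured 236 and 196 CPM at 2W, 365 and 389 at 6W, then 341 and 467 at 3M. H2-Eb1, the beta chain of I-E, measured 226 and 208 CPM at 2W, 406 and 402 at 6W, then 395 and 529 at 3M. All 4 older libraries lay above both 2W libraries for each of these genes. The log2 fold change at 6W against 2W was 0.80 ± 0.12, adjusted p = 0.037 for H2-Aa and 0.90 ± 0.15, adjusted p = 0.0474 for H2-Eb1. H2-Ab1 (0.80 ± 0.17, adjusted p = 0.0841) and H2-Eb2 (0.48 ± 0.11, adjusted p = 0.0859) did not pass the test there. At 3M against 2W all 4 tested chain genes were called, with 0.96 ± 0.12, adjusted p = 0.00888 for H2-Aa, 0.90 ± 0.17, adjusted p = 0.0242 for H2-Ab1, 1.09 ± 0.15, adjusted p = 0.0115 for H2-Eb1 and 0.46 ± 0.11, adjusted p = 0.0396 for H2-Eb2. H2-Eb2 measured 23.4 and 23.6 CPM at 2W, 32.8 and 32.5 at 6W, then 31.8 and 33.0 at 3M.

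Of the 6 genes that load class II molecules, 2 were called at 6W and 5 at 3M, all higher than at 2W, against 1.47% and 7.91% of all tested genes. Cd74, the invariant chain that guards the groove until endosomal proteases remove it, measured 603 and 431 CPM at 2W, 954 and 996 at 6W, then 790.3 and 1108 at 3M. All older libraries lay above both 2W libraries, with a log2 fold change of 0.92 ± 0.21, adjusted p = 0.0905 at 6W, which did not pass, and 0.88 ± 0.21, adjusted p = 0.0452 at 3M. H2-DMb1, a beta chain of the peptide editor H2-M, measured 12.3 and 10.29 CPM at 2W, 20.6 and 23.95 at 6W, then 24.1 and 29.3 at 3M and rose by 0.98 ± 0.17, adjusted p = 0.0477 at 6W and 1.24 ± 0.17, adjusted p = 0.0106 at 3M. H2-DMa measured 25.5 and 28.1 CPM at 2W, 39.3 and 41.1 at 6W, then 38.3 and 48.4 at 3M and H2-DMb2 26.9 and 24.6 CPM at 2W, 39.0 and 35.9 at 6W, then 37.8 and 46.8 at 3M. Both passed only at 3M against 2W (0.70 and 0.72). H2-O, an inhibitor of that editor, is made of H2-Oa and H2-Ob. H2-Ob measured 6.57 and 6.31 CPM at 2W, 15.1 and 12.5 at 6W, then 14.1 and 15.0 at 3M and rose by 1.10 ± 0.16, adjusted p = 0.0364 at 6W and 1.17 ± 0.16, adjusted p = 0.0114 at 3M. H2-Oa measured 16.5 and 11.03 CPM at 2W, 18.6 and 17.95 at 6W, then 11.1 and 15.4 at 3M, with both 3M libraries within the range of the 2W libraries (-0.05 ± 0.24, adjusted p = 0.91). Whether the chains differed in change was not tested.

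Ctss, the endosomal protease that trims the invariant chain in dendritic cells, B cells and macrophages, had the smallest p of the 41 tested genes in both comparisons with 2W. It measured 62.2 and 58.8 CPM at 2W, 149 and 136 at 6W, then 168 and 163 at 3M, and every older library lay above both 2W libraries. The log2 fold change was 1.24 ± 0.11, adjusted p = 0.019 at 6W and 1.45 ± 0.11, adjusted p = 0.0044 at 3M.

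The machinery that makes and carries class I peptides has 5 loading and 5 immunoproteasome genes here. None of them was called at 6W against 2W, and 1 of each was called higher at 3M against 2W, where 1.47% and 7.91% of all tested genes were called higher. Tapbp, or tapasin, which bridges class I molecules to the peptide transporter, measured 145 and 138 CPM at 2W, 189.6 and 202 at 6W, then 211 and 246 at 3M and was higher at 3M (0.69 ± 0.12, adjusted p = 0.0187). Psmb9, an inducible catalytic subunit of the proteasome, measured 47.3 and 44.7 CPM at 2W, 58.5 and 60.9 at 6W, then 64.4 and 67.1 at 3M and was higher at 3M (0.52 ± 0.10, adjusted p = 0.0273). The transporter genes Tap1 and Tap2 had log2 fold changes of 0.21 and -0.08 at 3M against 2W, and neither passed the test. Psmb8 and Psmb10, the other inducible catalytic subunits, had -0.16 and 0.16. For the proteasome activator genes Psme1 and Psme2 the values were 0.24 and 0.44, and for Tapbpl 0.05, none of which passed.

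Erap1, the aminopeptidase that trims class I peptides in the endoplasmic reticulum, measured 128 and 161 CPM at 2W, 147 and 138 at 6W, then 191 and 147 at 3M. The ages overlapped except at 3M against 6W, where both 3M libraries lay above the 6W ones, the nearer of them only barely. None of its log2 fold changes passed the test, with -0.02 ± 0.17, adjusted p = 0.966 at 6W against 2W, 0.24 ± 0.17, adjusted p = 0.541 at 3M against 6W and 0.22 ± 0.17, adjusted p = 0.45 at 3M against 2W. Its main transcript held 96.5% of its counts. An assembled transcript with 0.881% of them had 60.7 and 46.9 counts at 2W, 23.3 and 21.4 at 6W, and 0 in both 3M libraries. In the edgeR fit over single transcripts its adjusted p was 0.655 at 3M against 6W and 0.16 at 3M against 2W. That fit called 0 of 35277 transcripts by adjusted p in any comparison. At 3M against 6W this transcript had a log2 fold change of -7.31 and an unadjusted p of 0.00175 in that fit. It thus passed the threshold of the study, as 3.34% of all transcripts did in either direction. The study describes Erap1 as down-regulated at 3M, while the gene sum here was not lower at 3M than at 6W.

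Both transactivator genes were higher at 3M than at 2W. Ciita measured 49.2 and 47.9 CPM at 2W, 60.9 and 61.6 at 6W, then 70.0 and 76.0 at 3M. Nlrc5 measured 66.7 and 59.3 CPM at 2W, 82.0 and 84.7 at 6W, then 133 and 126 at 3M. In each gene the libraries were ordered by age without overlap. The log2 fold change from 2W to 3M was 0.59 ± 0.10, adjusted p = 0.0201 for Ciita and 1.04 ± 0.11, adjusted p = 0.00693 for Nlrc5, which also passed the threshold of the study. At 6W against 2W neither was called (0.34 and 0.40). From 6W to 3M Nlrc5 had the smallest p of the 41 genes, 0.00088 unadjusted, but not after adjustment (0.64 ± 0.11, adjusted p = 0.196).

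**Figure D2:**
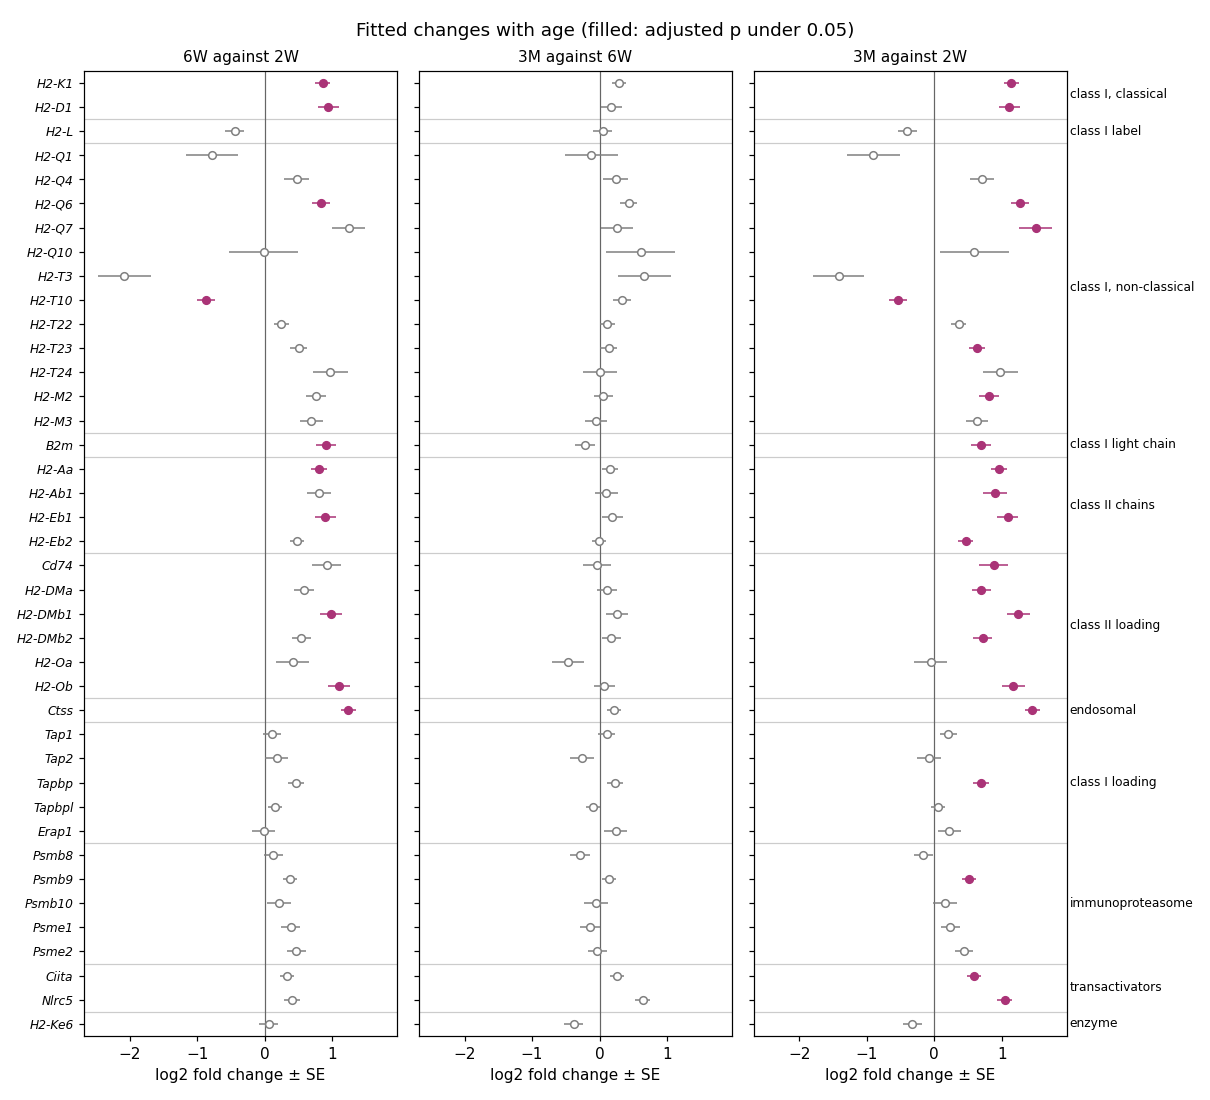
Log2 fold changes with their standard errors are plotted for the same 40 genes in the 3 age comparisons, filled where the adjusted p of the edgeR quasi-likelihood test was under 0.05. Filled points are 10 at 6W against 2W, none at 3M against 6W and 22 at 3M against 2W.

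Counted over all 41 tested genes, 9 were higher and 1 lower at 6W than at 2W by adjusted p, against 1.47% higher and 0.263% lower among all 14805 genes. At the threshold of the study 3 were higher and 1 lower, against 4.48% and 0.878% of all genes. The median log2 fold change was 0.47 over the 41 genes and -0.01 over all genes. At 3M against 2W 21 were higher and 1 lower by adjusted p, against 7.91% and 3.09% of all genes, and 9 and 1 at the threshold of the study, against 7.67% and 1.68%. There the medians were 0.63 and -0.03. The comparisons share libraries of 2W, and those with 6W share the 6W libraries, so they are not independent of each other. From 6W to 3M no gene of the 41 was called by either rule. All genes gave 0.0% higher and 0.00675% lower by adjusted p, and 1.29% and 0.817% at the threshold of the study. At an unadjusted p under 0.05, 6 of the 41 passed there, 5 higher (H2-K1, H2-Q6, H2-T10, Ciita and Nlrc5) and 1 lower (H2-Ke6, a steroid dehydrogenase gene named after the region, -0.38), and DESeq2 called 1, Nlrc5, by adjusted p. Over all genes 7.81% were higher and 6.46% lower at that unadjusted p, so that 6 of 41 was close to the background. These counts rest on few libraries. Without any 1 of the 2W or 6W libraries none of the 41 passed the adjusted p at 6W against 2W, where 0 to 2 of all genes passed. Without a 3M library 16 to 18 of the 41 passed, against 615 to 658 of all genes (257 with all libraries). At 3M against 2W, 7 passed without the first 2W library and 4 without the second, 10 without either 6W library, and 13 without the second 3M library. Among all genes 1.55%, 1.88%, 3.75% to 3.78% and 9.11% passed in these fits, so the counts of all genes moved too. A fit over Ensembl transcripts alone called 0 of the set at 6W against 2W and 4 of all genes, and DESeq2 called 21 and 888.

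Summed over heavy chains, class I reached 624 and 557 FPKM in the 2W libraries, 969 and 987 at 6W and 1039 and 1209 at 3M. The class II chains summed to 538 and 491 FPKM at 2W, 966 and 959 at 6W and 935 and 1230 at 3M. Both sums were higher in all 4 older libraries, and the means at 6W were 1.66-fold and 1.87-fold those at 2W for class I and class II. At 3M the means were 1.90-fold and 2.10-fold those at 2W. The ratio of class II to class I was 0.861 and 0.882 at 2W, 0.996 and 0.972 at 6W and 0.900 and 1.02 at 3M. The 2W and 6W ratios did not overlap in FPKM or in any of the 3 other ways of summing. Both 3M ratios also lay above both 2W ratios, except with Ensembl transcripts only, where they overlapped, and they lay on either side of the 6W ratios. With 2 libraries against 2 an exact permutation test cannot go below 0.333, so no test of the ratio was made. H2-K1 made up 30.2% to 37.0% of the class I sum and H2-Aa 39.9% to 42.6% of the class II sum. H2-Eb1, whose partner gene H2-Ea is defective in this haplotype, made up 25.4% to 27.7% of the class II sum. The sums are thus of RNA and not of class II molecules. Cd74, a single gene, had 305 to 831 FPKM, the highest level among the 54 genes.

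**Figure D3:**
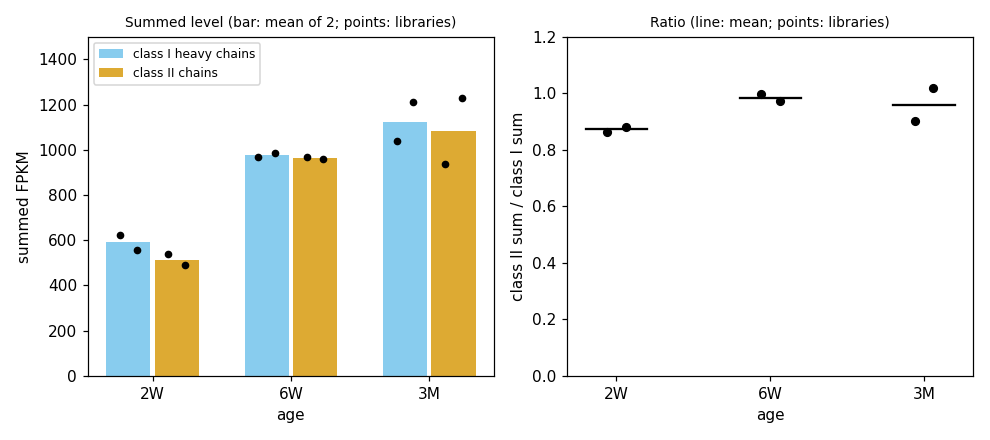
Left, summed FPKM of the class I heavy chains and the class II chains by age, with bars for the mean of 2 libraries and points for the libraries. Right, the class II sum over the class I sum in each library, from 0.861 and 0.882 at 2W to 0.900 and 1.02 at 3M.

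Other genes of the pathway were listed by role. Of 42 genes listed outside the rule, all were tested, and 4 were higher and 0 lower at 6W against 2W by adjusted p, against 1.47% and 0.263% of all genes. These were the endosomal proteases Ctsb (0.77) and Ctsh (0.72) and the ubiquitin ligases March1 (1.04) and March8 (0.88), which tag class II molecules for removal. At 3M against 2W 11 were higher and 1 lower, against 7.91% and 3.09% of all genes. Those that had not passed at 6W included the protease genes Lgmn (1.03) and Prss16 (0.45), the interferon regulator Irf8 (0.85), the class I-like genes Fcgrt (0.83) and Hfe (1.30), and the chaperone Hspa5 (0.49). Nfyc, a subunit of the factor that binds the Y box, was lower (-0.47). None of the 7 constitutive and thymic proteasome genes and none of the 6 cytosolic and other peptidases passed in any comparison.

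Marker lists of the cell types of the thymus were summed in the same libraries, and at 3M against 2W 7.91% of all genes were called higher and 3.09% lower. The 9 macrophage markers summed to 310.5 to 364.8 CPM at 2W, 693 to 738 at 6W and 745 to 797 at 3M, and 6 of the 9 were called higher at 3M against 2W. The 10 dendritic cell markers summed to 97.7 to 109 CPM at 2W, 126 to 134 at 6W and 101.5 to 134 at 3M, with 4 of 10 called higher at 3M. Ccl22, at 61.3 to 70.1 CPM at 2W and 30.8 to 50.8 at 3M, made up most of the 2W sum, and without it, left out after its values were seen, the other 9 summed to 36.4 to 38.8 CPM at 2W, 71.8 to 79.2 at 6W and 70.6 to 83.2 at 3M. The 8 B cell markers summed to 357 to 444 CPM at 2W, 588 to 655 at 6W and 672 to 715 at 3M, with 3 of 8 called. Ighm made up 86.8% to 90.6% of these sums, and without it the other 7 summed to 46.8 to 52.4 CPM at 2W, 75.0 to 86.7 at 6W and 62.9 to 72.6 at 3M. The 8 markers of CD4+ CD8+ thymocytes, the largest thymic population, summed to 14632 to 16370 CPM at 2W, 13511 to 13534 at 6W and 11722 to 11749 at 3M, and 0 of 8 were called at 6W and 5 lower at 3M, both against 2W. Rag1 made up 59.8% to 68.2% of the sums, and without it the other 7 overlapped between 2W (5198 to 5233 CPM) and 6W (5198 to 5427), with 4038 to 4184 at 3M. Cortical epithelial markers summed to 1603 to 1625 CPM at 2W and 2121 to 2180 at 3M, with 4 called higher and 1 lower, and medullary ones to 186 to 258 and 304 to 430, with none called. The 6 adipocyte markers summed to 39.4 to 39.6 CPM at 2W and 162 to 305 at 3M, with 5 of 6 called higher. The 6 markers of mature thymocytes summed to 358 to 363 CPM at 2W and 468 to 494 at 3M, with 2 of 6 called higher. Fibroblast markers summed to 382 to 422 CPM at 2W and 241 to 328 at 3M, with 2 called higher and 2 lower, and endothelial ones to 224 to 225 and 186 to 189, with none called. Without Col3a1 the fibroblast sums were 137 to 149 and 144 to 204 CPM, and without Pecam1 the endothelial ones were 45.5 to 46.4 and 41.5 to 50.01, so neither was lower at 3M without its most abundant marker. These markers too were left out after their values were seen, and for the macrophage, B cell, cortical, medullary, adipocyte and mature thymocyte lists both 3M libraries stayed above 2W without the most abundant marker. The skeletal muscle and exocrine gland lists stayed under 10 CPM. Red blood cell markers reached 2159 CPM in the second 3M library against 401 to 813 in the others. No marker was at 0 in every library. The part of these cells in the changes of the MHC genes was not tested.

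**Figure D4:**
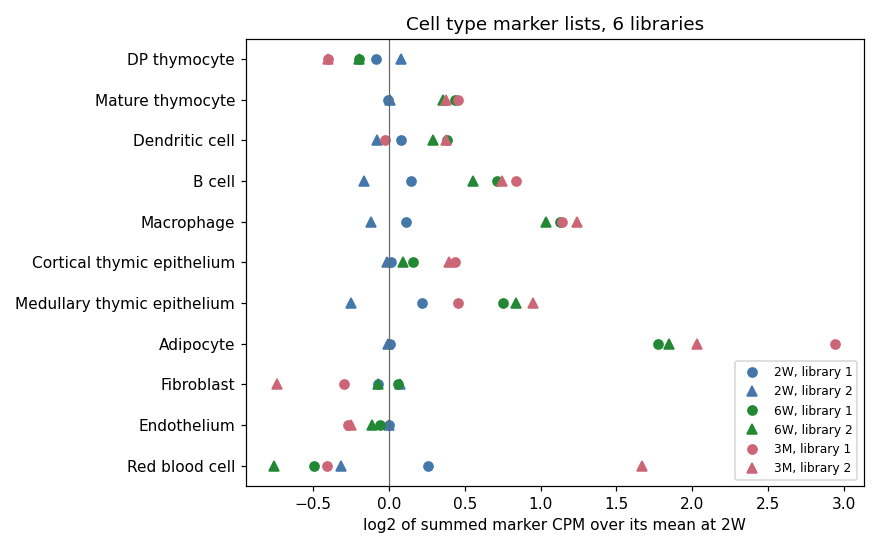
The log2 of the summed CPM of each marker list over its mean at 2W is shown for every library. Macrophage and B cell sums are higher in all 6W and 3M libraries than at 2W, and the sum for CD4+ CD8+ (DP) thymocytes is lower, though without Rag1 it overlaps between 6W and 2W.

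The study links Erap1 to mmu-miR-125a-5p, printed here with its seed, bases 2 to 8, in capitals.
mmu-miR-125a-5p: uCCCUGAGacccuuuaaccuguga (chr17:17830817-17830840, + strand, GRCm38.p6)
The miRNA had 10996 and 7888 counts at 2W, 17012 and 11704 at 6W, then 53150 and 22313 at 3M in small RNA libraries of the same ages. It was higher in both 3M libraries than in all the others, and the 3M libraries differed more from each other than those of the younger ages. The log2 fold change of mmu-miR-125a-5p was 0.70 ± 0.31, adjusted p = 0.185 at 6W against 2W, 1.29 ± 0.32, adjusted p = 0.0849 at 3M against 6W and 1.98 ± 0.32, adjusted p = 0.0025 at 3M against 2W. Only the last passed by adjusted p. The change at 3M against 6W (unadjusted p = 0.0024, edgeR) and that at 3M against 2W also passed the threshold of the study. Among 822 tested miRNAs, 2.31%, 0.487% and 13.5% were called higher by adjusted p in these comparisons. Of the circRNAs linked to the same miRNA, novel_circ_000862, novel_circ_001902 and novel_circ_002116 were counted. Their counts were 3 and 13 at 2W, 12 and 12 at 6W, and 1 and 3 at 3M for novel_circ_000862, and 1 and 3, 6 and 10, and 0 and 0 for novel_circ_001902. For novel_circ_002116 they were 0 and 3, 3 and 7, and 0 and 0. None had an adjusted p under 0.05 at 3M against 6W in edgeR or DESeq2, where 0.144% of 2779 circRNAs were called lower. All 3 had an unadjusted p under 0.05, as 3.63% of the circRNAs did in that direction, but the study chose them as changed in these same libraries, so this is a description only. The circRNA mmu_circ_0000459 is not analysed here.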

How the data were processed

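Estimated counts and FPKM per transcript for mRNAs, and counts for miRNAs and circRNAs, are as the authors deposited them. The submitters' processing notes name Bowtie 0.12.2 and mm8, with no role. FPKM values, normalised by length and depth, were computed by the authors. The authors also deposited RPM for circRNAs and TPM for miRNAs, each normalised to library depth, which were not tested. Rows were grouped by symbol (symbols that differ only in case joined), summed and rounded. Counts without a symbol, 0.699% to 1.20%, were left out. Ages come from the labels. Genes were filtered by filterByExpr, scaled by TMM and fitted over the 6 libraries with age as the only term in edgeR 4.0.16 (R 4.3.3), using the quasi-likelihood F test with Benjamini-Hochberg adjustment over all tested genes. The circRNAs needed 6 counts over the libraries. The test was tested on simulated data. Per-library values are given for 10 set genes and for every called gene of the set, and fold changes alone for the outside list. DESeq2 1.42.0, the edgeR exact test, other scalings, filters, summing and each library left out were alternatives. The genes and lists were chosen with earlier results of these data known. Tables were handled in Python with pandas. The lncRNA table was not used here, and 1 called gene of the outside list is not reported here.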

Additional observations from a re-analysis of the deposited data

How the results depend on the processing

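The counts of genes of the set called by adjusted p moved with the setting, and so did those of all genes. At 6W against 2W the 10 calls became 21 with DESeq2, 22 with the edgeR exact test, 19 with only the 4 libraries compared, 2 with symbols as the file spells them, 0 with Ensembl transcripts only, 0 with transcripts tested singly, and 0 to 18 with single libraries left out. Among all genes the 257 calls became 888, 932, 662, 124, 4, 0 (of 35277 transcripts) and 0 to 658 in the same order. At 3M against 2W the 22 calls became 10 with only the 4 libraries compared, 0 with transcripts tested singly, and 4 to 20 with single libraries left out, and the 1629 of all genes became 663, 0 and 239 to 1741. At 3M against 6W the count of 0 became 1 with DESeq2 and 1 with the exact test, and the 1 of all genes 341 and 314. Where 1 library of an age was left out, the other was assumed to vary like the other ages. Past the threshold of the study, the 4 calls at 6W against 2W became 7 with total counts as the only scaling, 13 with transcripts tested singly and 3 to 10 with single libraries left out, and the 793 of all genes 872, 1510 (transcripts) and 637 to 978. The 10 calls at 3M against 2W became 18 with transcripts tested singly, and the 0 at 3M against 6W became 1 with Ensembl transcripts only, 6 with transcripts tested singly and 0 to 1 with single libraries left out. Over all genes the 1385 became 2151 (transcripts), and the 312 became 326, 1180 (transcripts) and 219 to 668. The cause was not tested.

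With the replicate number as a block, the calls by adjusted p were 0 at 6W against 2W, 0 at 3M against 6W and 10 at 3M against 2W, and 5, 0 and 742 over all genes. The labels do not say that a number marks shared animals. The replicate differences of 2W and 6W correlated at -0.10, those of 6W and 3M at 0.36 and those of 2W and 3M at -0.27. Whether libraries of the same number share more than the number cannot be told from these values.

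Directions turned in few cases, none of them called. At 3M against 6W, with the second and then the first 3M library left out, the log2 fold changes spanned -0.040 to 0.33 for H2-D1, -0.036 to 0.30 for H2-Aa, -0.20 to 0.32 for H2-Ab1, -0.088 to 0.40 for H2-Eb1 and -0.36 to 0.19 for Cd74. The main transcript of H2-Ab1 gave -0.22 there. For Erap1 at 6W against 2W the value became 0.048 with total counts, 0.00879 with only the 4 libraries compared and 0.049 for its main transcript, and spanned -0.18 to 0.19 with single libraries left out.

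For mmu-miR-125a-5p at 6W against 2W, no filter gave 0.79 and an adjusted p of 0.0235 (edgeR). At 3M against 6W, DESeq2 gave 1.27, the replicate block 1.23 and no filter 1.28, each now with an adjusted p under 0.05. Single libraries left out gave 0.49 to 1.04 at 6W against 2W, 0.72 to 1.66 at 3M against 6W and 1.41 to 2.51 at 3M against 2W. The class II to class I ratio in CPM was 0.619 at 2W, 0.703 at 6W and 0.671 at 3M. With Ensembl transcripts only it was 0.981 at 2W and 1.04 at 6W, and without the most abundant member of each class 0.727 and 0.883.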

Other observations

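Several genes of the set also gave circRNAs, all at low counts. The circRNA of Psmb9 had 13 counts over the 6 libraries, that of Tap2 2, that of H2-DMa 3 and that of Nlrc5 2. Those of Erap1 had 6 and 10 counts, and that of B2m had 6, of which 5 were in the first 6W library. Circles assigned to H2-Q6 and H2-T22 had 7 and 19 counts and spliced lengths of 41807 and 76255 bases, far beyond the length of either gene, in a region of close paralogs.

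H2-K1 has 2 assembled transcripts whose counts were opposite in order to the gene as a whole. TCONS_00053413 had 85.0 and 130.0 counts at 2W, 28.0 and 47.0 at 6W, and 26.0 and 41.0 at 3M. TCONS_00053412 had 54.5 and 72.0 at 2W, 23.98 and 38.0 at 6W, and 18 and 30 at 3M. Together they hold under 1% of the counts of H2-K1. The fit over single transcripts called 0 of 35277 transcripts by adjusted p. Both H2-K1 transcripts passed the threshold of the study at 6W and at 3M against 2W, as 4.28% and 6.1% of all transcripts did.

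The miRNA mmu-miR-451a, also tied to Erap1 in the study, had 1739 and 1638 counts at 2W, 1890 and 1572 at 6W, and 2845 and 5554 at 3M. Its log2 fold change at 3M against 2W was 1.40 ± 0.34 (adjusted p = 0.0134, edgeR quasi-likelihood test). It was 0.76 without the second 3M library and 1.88 without the first, and without the second 2W library it was 1.37 with an adjusted p of 0.0512 in edgeR. At 3M against 6W the log2 fold change of this miRNA was 1.27 ± 0.34 (adjusted p = 0.0911, same test), past the threshold of the study only. That change was 0.47 without the second 3M library and 1.76 without the first. The second 3M library, which had the higher count, also had the highest sum of red blood cell markers in the RNA-seq libraries, and their relation was not tested.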
